A study of Mus musculus with 4 samples.

Results

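The 10 genes described here were Myc, Mycn, Mycl, Max, Mxd1, Mxd3, Mxd4, Mxi1, Mnt and Mlx, which encode transcription factors of the Myc and Max network. They were chosen by name from the network and not by their values, though with earlier results of these data known. All 10 were matched by gene identifier among the 55401 gene models in the files, and all 10 passed the filter on low counts that left 14635 genes for testing. RNA-seq was performed on mouse bone marrow cells that the labels name ltHSC, long-term hematopoietic stem cells, which the study's text calls the wider class of hematopoietic stem and progenitor cells (HSPCs). Bone marrow was enriched for c-Kit+ cells and then sorted. The 2 Control libraries carry the genotype label WT. The study's methods give the controls as Cpt1a fl/fl mice, in which both alleles of Cpt1a are floxed and intact. The 2 KO libraries carry the label Cpt1a-KO and came from Cpt1a Δ/Δ mice, the same floxed line with Vav1-Cre, a Cre driven by the Vav1 promoter that acts across the blood system and not in HSCs alone. By the methods, both groups share the floxed alleles and the C57BL/6 background, and only the KO carries Cre. The Control label WT does not itself state floxed alleles. An effect of Cre and one of Cpt1a deletion cannot be told apart here. The comparison asks how loss of Cpt1a, which encodes the carnitine palmitoyl transferase that lets long-chain fatty acids enter mitochondria, alters the transcriptome of these cells. The mice were adults of both sexes per the methods. No label says that replicates were separate animals, so the p-values measure the spread between these libraries, which may be technical.

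Factors of this network are basic helix-loop-helix leucine zipper proteins that bind DNA in pairs. Max is the shared partner. Myc, N-Myc (Mycn) and L-Myc (Mycl) pair with Max to activate genes of growth, ribosome production and metabolism, while the Mxd proteins, Mxi1 and Mnt pair with Max to recruit Sin3 and histone deacetylases and repress. Mlx is a Max-like partner in a parallel branch, where it joins Mlxip or Mlxipl to respond to glucose metabolites and also pairs with Mnt, Mxd1 and Mxd4. In blood formation, Myc levels are known to bear on whether HSCs stay in the niche or differentiate, Mycn acts alongside Myc in HSCs, Mxd1 rises as myeloid cells mature, and Mycl is known from dendritic cells.

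The pairs bind an E-box, the letters CACGTG, which read the same on both strands. The motif was searched in the RefSeq promoter windows of assembly GRCm38.p6, each running from 250 bases before to 50 bases after a gene start. Of the 10 genes, 9 had a window, with 11 windows in all. Myc had no window, so it was not searched. The motif was in windows of 4 of these 9 genes (Mxd4, Mnt, Mlx and Max), beside 8.09% of the 27025 genes in that table. The 4 stretches of 30 bases are shown because they are the network's own recognition letters lying at the promoters of its own members. Capitals mark the E-box, and each sequence is read 5′ to 3′ on the strand of its gene.
Mxd4, chr5:34187912-34187941, minus strand: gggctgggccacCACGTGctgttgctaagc
Mnt, chr11:74830789-74830818, plus strand: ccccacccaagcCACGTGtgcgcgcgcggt
Mlx, chr11:101087238-101087267, plus strand: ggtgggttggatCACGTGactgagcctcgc
Max, chr12:76962234-76962263, minus strand: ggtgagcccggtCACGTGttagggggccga
Counted from the RefSeq start of each window, the first base of the motif is at -219 in Mxd4, -123 in Mnt, -40 in Mlx and -3 in Max. The GENCODE gene models, whose coordinates are given with each gene, start elsewhere, and counted from the GENCODE start of Max the first base is at -50. A match is a description of letters in a window, not a bound site. None of the 4 genes passed the test between KO and Control, as their values show.

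The libraries held 20589218 and 23291747 estimated counts in Control replicates 1 and 2, and 34083159 and 33909781 in KO replicates 1 and 2, so the KO libraries were the deeper ones. Cpt1a itself, the targeted gene, was at 37.0 and 35.6 TPM (a transcript level scaled by gene length and by library) in Control and at 11.5 and 19.2 TPM in KO. Its log2 fold change was -1.60 (SE 0.152, adjusted p = 0.00695, edgeR's quasi-likelihood test with Benjamini-Hochberg adjustment, as for every adjusted p here unless another tool is named). Cpt1a was not called with RSEM effective lengths as offset in edgeR (adjusted p = 0.368) or with limma on log2(TPM + 1) (adjusted p = 0.425). HSC markers were present in all libraries (Kit at 232 to 275 TPM, Procr at 29.5 to 55.0 TPM, Slamf1 at 2.88 to 4.83 TPM), with Hoxb5 at 1.12 TPM or less and at 0 in KO replicate 2. Over the list of 12 HSC markers, 0 were called and the median log2 fold change was -0.17, with 8 negative. In counts scaled to library size, both KO libraries lay below both Control libraries for 5 of the 12 (19.3% of all genes did). Both lay above for 3 (22.7% of all genes did). The list median was negative in all 12 alternative analyses. The neutrophil granule gene Mpo was also high, at 1639 to 2959 TPM. Markers of other cells moved with genotype. Summed over the B lineage list, levels were 65.0 and 97.1 TPM in Control and 677 and 465 TPM in KO, with 10 of 10 tested genes called higher (3 of 10 without KO replicate 1, 0 with RSEM effective lengths as offset, and 1 or 0 with limma) and none of the 10 at 0 in any library. The mast cell list summed to 51.7 and 25.3 TPM in Control and to 347 and 442 TPM in KO, with 5 of 8 called higher, and 3 and 5 of its genes at 0 in the Control replicates. The erythroid list summed to 1150 and 926 TPM in Control and to 391 and 437 TPM in KO, with 5 of 11 called lower (9 of 12 without Control replicate 2, 3 of 12 without KO replicate 1). The neutrophil list summed to 11858 and 8152 TPM in Control and to 6355 and 6531 TPM in KO, with 1 of 10 called lower, a count that moved to 9 without Control replicate 2, 3 without Control replicate 1 and 2 without KO replicate 2. With the length offset and with limma, 0 genes of the erythroid and neutrophil lists were called, and 3 of the mast cell list with the offset and 3 or 0 with limma. Their part in the results on the network genes was not tested, and in bulk samples fewer cells of a type and less RNA per cell cannot be told apart. Control replicate 2 stood apart in immediate early genes such as Egr1, with 7627 TPM summed over that list against 458 to 696 TPM in the other 3 libraries. In that list 0 of 14 tested genes were called, but 12 of 15 were called lower without Control replicate 1 and 3 of 14 without Control replicate 2.

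None of the 10 network genes was called between KO and Control at an adjusted p under 0.05 with edgeR. Over all 14635 genes tested, 0.451% were called higher in KO, 0.212% lower and 0.663% in either direction. At an unadjusted p under 0.05, 1 of the 10 passed (Mycl), beside 10.4% of all genes. DESeq2 called 1 of the 10, again Mycl (adjusted p = 0.00517), beside 1116 of the 18374 genes it tested. With DESeq2, 2 of the 10 had an unadjusted p under 0.05, beside 2957 of those 18374 genes. The median absolute log2 fold change of the 10 was 0.18, beside 0.25 over all genes tested. On counts, the 95% interval of the fold change lay within a 2-fold change either way for 8 of the 10 genes. The exceptions were Mycl and Mxd3. Over all genes tested, the median width of this interval was 1.21 in log2 units, and the share of genes inside 2-fold was not counted. With RSEM effective lengths as offset, the interval of Mxd1 also reached past 2-fold (log2 fold change -1.80, interval -3.01 to -0.59). In a design of 2 libraries a group, the smallest p that an exact permutation test on 1 gene can give is 0.333, so these tests rest on a spread pooled over genes.

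**Figure D1:**
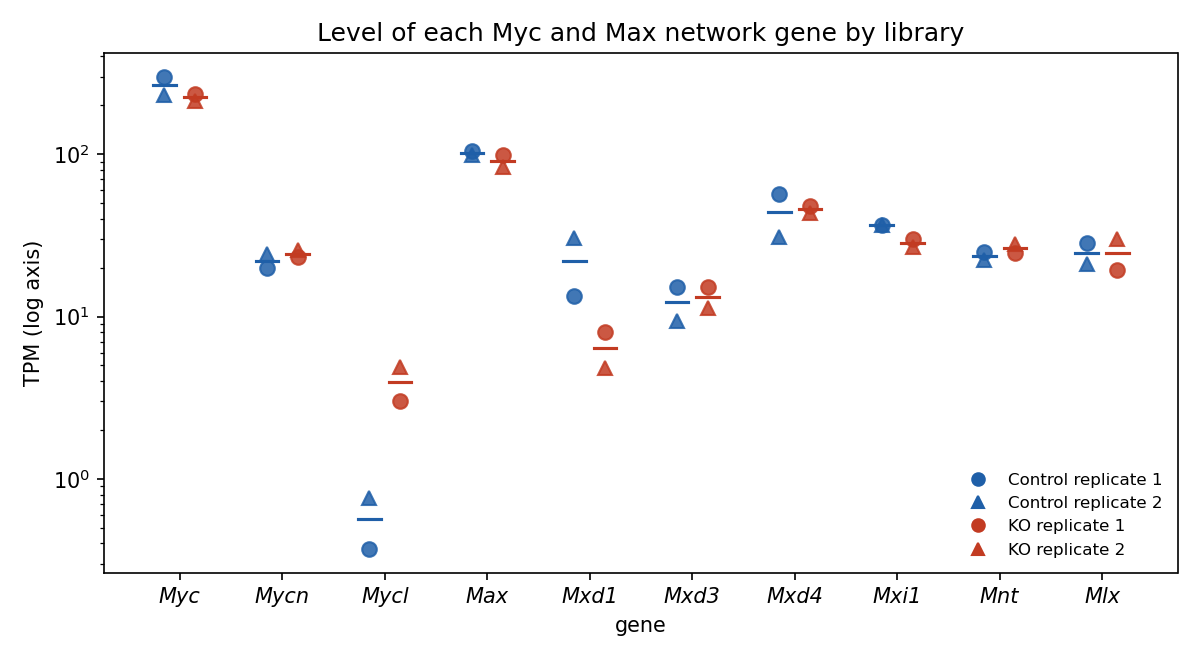
TPM of each network gene (log axis) in the 4 libraries, with circles for replicate 1, triangles for replicate 2 and a bar at the mean of each group. Myc is the highest of the 10 in every library and Mycl the lowest in Control, and the groups lie farthest apart for Mycl (higher in KO) and Mxd1 (lower in KO).

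In Control, the order of mean TPM was Myc (265 ± 49.6, SD, n = 2, as for every mean here), Max (102 ± 3.37), Mxd4 (43.8 ± 18.5), Mxi1 (36.7 ± 0.0141), Mlx (24.7 ± 5.05), Mnt (23.7 ± 1.80), Mycn (22.1 ± 3.20), Mxd1 (22.01 ± 12.1), Mxd3 (12.3 ± 4.15) and Mycl (0.565 ± 0.276). The ranges of Mxd4 and Mxi1 overlapped, and so did those of neighbours from Mlx down to Mxd3, so their order is not set by these libraries. Myc, Max and Mycl each stood clear of their neighbours. In KO the order was Myc (224 ± 17.5), Max (91.0 ± 10.8), Mxd4 (45.6 ± 3.41), Mxi1 (28.3 ± 2.29), Mnt (26.3 ± 2.26), Mlx (24.7 ± 7.63), Mycn (24.4 ± 1.73), Mxd3 (13.3 ± 2.88), Mxd1 (6.41 ± 2.26) and Mycl (3.97 ± 1.34). There the ranges from Mxi1 to Mycn overlapped between neighbours, and so did those of Mxd1 and Mycl. By rank, 3.20% of tested genes had a higher mean TPM than Myc in Control and 3.92% in KO.

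Myc (ENSMUSG00000022346, GRCm38 chr15:61985391-61990374, plus strand) was the dominant activator. Its TPM was 300.4 and 230.2 in Control and 236 and 211 in KO, and its counts were 8145 and 7508 in Control and 10492 and 10239 in KO. In CPM (counts scaled by the library total and not by length), Myc was at 396 and 322 in Control against 308 and 302 in KO. Both KO libraries lay below both Control libraries in CPM, while in TPM KO replicate 1 lay above Control replicate 2. The log2 fold change was -0.25 (SE 0.111, 95% interval -0.50 to 0.01, adjusted p = 0.501), a fold of 0.844 with an interval of 0.706 to 1.01. The gap between the Control replicates (1.23-fold in CPM) was far over their counting error, and Control replicate 1 was the higher. Immediate early genes had their high level in the other Control library, replicate 2. Without Control replicate 1 the log2 fold change of Myc was -0.10, and without Control replicate 2 it was -0.37.

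Mycn (ENSMUSG00000037169, chr12:12936093-12941914, minus strand) was at 19.8 and 24.4 TPM in Control and at 23.2 and 25.6 TPM in KO, so the groups overlapped. The log2 fold change was 0.04 (SE 0.205, interval -0.43 to 0.51, adjusted p = 0.986). In Control, Myc made up 93.7% and 90.2% of the summed TPM of Myc, Mycn and Mycl, and in KO 90.01% and 87.4%.

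Mycl (ENSMUSG00000028654, chr4:122995652-123002485, plus strand) showed the largest difference of the 10 genes. It was at 0.37 and 0.76 TPM in Control and at 3.03 and 4.92 TPM in KO, from counts of 17 and 39 in Control and 200 and 245 in KO. In CPM the values were 0.826 and 1.67 in Control, with exact Poisson intervals of 0.481 to 1.32 and 1.19 to 2.29, and 5.87 and 7.23 in KO, with intervals of 5.08 to 6.74 and 6.35 to 8.19. Both KO libraries thus lay above both Control libraries on every scale, and the intervals, which cover counting error only, did not touch. The log2 fold change was 2.37 (SE 0.766, interval 0.60 to 4.14), a fold of 5.16 with an interval of 1.51 to 17.6. After adjustment over all genes this did not pass (adjusted p = 0.358), and 5.34% of tested genes had a larger absolute log2 fold change. With DESeq2 it passed, and with edgeR on fewer libraries the adjusted p was 0.240 without Control replicate 1, 0.0794 without Control replicate 2, 0.967 without KO replicate 1 and 1 without KO replicate 2. Even in KO the level of Mycl stayed low, with 74.6% of tested genes at a higher mean TPM, against 90.8% in Control.

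Since Mycl is known from dendritic cells, a list of 9 dendritic cell markers was added after the values were seen, and none of the 8 tested passed (at an unadjusted p under 0.05, 1 was higher in KO, Ccr9, and 1 lower, Zbtb46). The list summed to 199 and 236 TPM in Control and to 248 and 241 TPM in KO, most of it Flt3, which progenitors also express. The other members went in both directions. Ccr9 was at 3.04 and 1.76 TPM in Control and at 6.48 and 6.71 TPM in KO, and Zbtb46 was at 8.93 and 3.88 TPM in Control and at 1.74 and 1.69 TPM in KO. Between the groups the values overlapped for Batf3 (2.69 and 0 TPM in Control, 1.91 and 4.57 TPM in KO), Clec9a (0.75 and 2.41 TPM in Control, 4.10 and 0 TPM in KO), Itgax (0.85 and 3.86 TPM in Control, 4.96 and 2.51 TPM in KO) and Siglech (3.11 and 0.70 TPM in Control, 0.93 and 0 TPM in KO). Xcr1 was at 0.80 and 1.01 TPM in Control and at 0.55 and 0.68 TPM in KO, and Cd209a was at 0 in all libraries. The part of dendritic cells in the Mycl values was not tested. The B lineage and mast cell sums, higher in KO as Mycl was, are given above, and their part in the Mycl values was not tested.

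Max (ENSMUSG00000059436, chr12:76937269-76962201, minus strand), the partner common to activators and repressors, was at 104 and 99.4 TPM in Control and at 98.7 and 83.4 TPM in KO. The KO libraries lay below the Control libraries, by a small step for KO replicate 1. The log2 fold change was -0.18 (SE 0.119, interval -0.46 to 0.09, adjusted p = 0.665). The ratio of Myc to Max TPM was 2.88 and 2.32 in Control and 2.39 and 2.53 in KO, which overlapped.

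**Figure D2:**
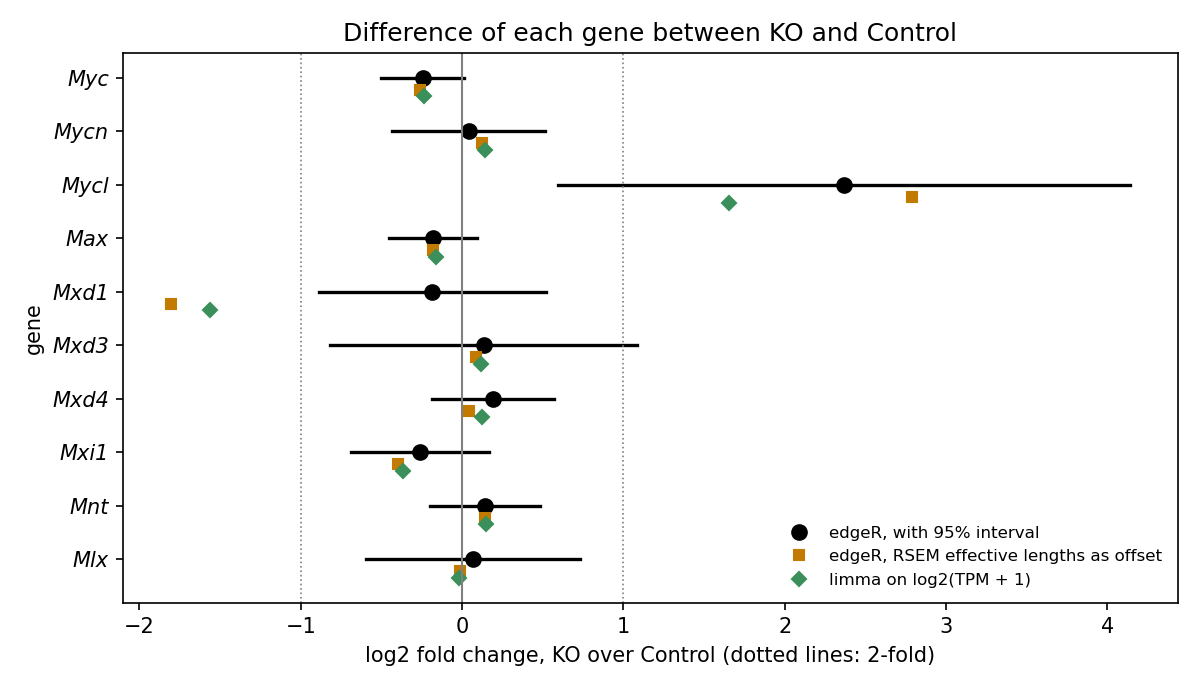
Log2 fold change of each network gene, KO over Control, with the edgeR value (black circle) and its 95% interval, the edgeR value with RSEM effective lengths as offset (square) and the limma value on log2(TPM + 1) (diamond). The 3 values lie close together for 8 genes, while for Mxd1 the length-aware values are at -1.80 and -1.56 against -0.19 on counts, and Mycl lies well to the right with the widest interval.

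Among the repressors, Mxd1 (ENSMUSG00000001156, chr6:86647042-86669161, minus strand) gave different answers on different scales. In TPM it was at 13.5 and 30.6 in Control and at 8.01 and 4.81 in KO, with both KO libraries below both Control libraries. In CPM it was at 20.5 and 24.3 in Control and at 24.6 and 15.2 in KO, and the groups overlapped. On counts, the log2 fold change was -0.19 (SE 0.305, interval -0.89 to 0.52, adjusted p = 0.933). The step between the scales is the gene's length as RSEM (the tool that made the files) estimates it, a mean over the gene's annotated transcripts weighted by their abundance. That length was 2354 and 1354 bases in Control and 4594 and 4666 bases in KO. The longest annotated transcript, the coding one of 6 exons, has 4666 bases. The other 3 in the annotation have 418 bases (coding), 912 bases (nonsense-mediated decay) and 2615 bases (a retained intron, non-coding). In KO replicate 2 all estimated abundance was therefore on the 4666-base transcript, while the Control means below it take in shorter ones. The log2 ratio of mean lengths was 1.32, and 0.506% of tested genes had a larger absolute ratio.

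With RSEM effective lengths as an offset in edgeR, the log2 fold change of Mxd1 was -1.80 (unadjusted p = 0.0104, adjusted p = 0.477). With limma on log2(TPM + 1) it was -1.56 (unadjusted p = 0.0237, adjusted p = 0.489). Neither passed after adjustment, but these settings called only 4 and 5 of 14635 genes. The deleted gene Cpt1a was not among those called (adjusted p = 0.368 and 0.425). At an unadjusted p under 0.05, 1244 and 1272 genes passed in them. Across the whole table, 125 of 14635 genes (0.854%) had both KO lengths above both Control lengths and a mean over 2-fold longer, so Mxd1 was 1 of a group. The length is an estimate from the split of reads among transcripts, given here with no test. Transcript-level values were not analysed here. A gene model of unknown coding status (Gm44292) lies inside Mxd1 on the same strand.

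**Figure D3:**
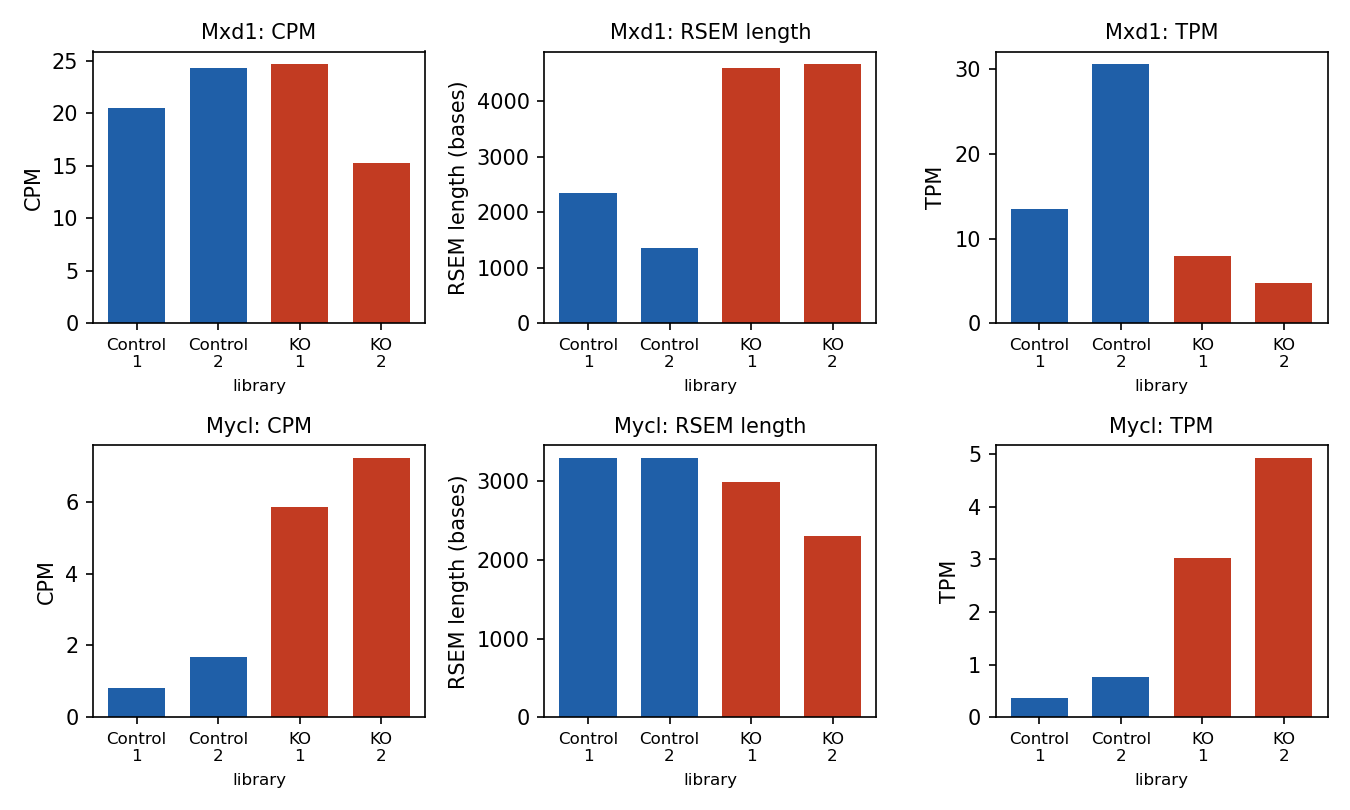
CPM (left), RSEM length in bases (middle) and TPM (right) of Mxd1 (top) and Mycl (bottom) in each library, as bars from 0, with Control in blue and KO in red. Mxd1 has overlapping CPM, a longer length in both KO libraries (4594 and 4666 bases) and a lower TPM, while Mycl is higher in both KO libraries in CPM and TPM.

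For Mycl the length moved the other way, from 3293 bases in both Control libraries to 2987 and 2305 bases in KO. The annotation gives Mycl transcripts of 3501, 3293 and 386 bases (coding) and of 728 and 670 bases (non-coding). The difference of Mycl with the length offset was 2.79 (adjusted p = 0.50). Of the 10 genes, 4 had longer lengths in both KO libraries (Mxd1, Mxd3, Mxi1 and Mlx), beside 13.3% of all genes, and 1 had shorter (Mycl), beside 11.4%. The other 3 differed less than Mxd1, with log2 length ratios of 0.06 in Mxd3, 0.14 in Mxi1 and 0.08 in Mlx.

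Mxd4 (ENSMUSG00000037235, chr5:34173883-34187720, minus strand) was the highest repressor by mean TPM in both groups, at 56.8 and 30.7 TPM in Control and at 48.0 and 43.2 TPM in KO. Both KO values lay between the Control replicates. In CPM the KO replicates were 113.6 and 113.1, and the Control replicates 115.4 and 81.9. The log2 fold change was 0.19 (SE 0.165, interval -0.19 to 0.57, adjusted p = 0.779).

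Mxi1 (ENSMUSG00000025025, chr19:53310518-53375810, plus strand) was at 36.8 and 36.7 TPM in Control and at 29.9 and 26.7 TPM in KO. In CPM it was at 48.0 and 56.2 in Control and at 46.3 and 41.4 in KO. The RSEM lengths in Control were 2051 and 2363 bases, so the near-equal Control TPM came from unlike CPM. Both KO libraries lay below both Control libraries on either scale. In CPM the exact Poisson intervals of KO replicate 1 (44.0 to 48.6) and Control replicate 1 (45.0 to 51.1) overlapped. The log2 fold change was -0.26 (SE 0.185, interval -0.69 to 0.17, adjusted p = 0.703), and with the length offset it was -0.39.

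Mxd3 (ENSMUSG00000021485, chr13:55325168-55329823, minus strand), a repressor known from dividing cells, was at 15.3 and 9.41 TPM in Control and at 15.3 and 11.2 TPM in KO, so the groups overlapped. It had the fewest counts after Mycl, 170 to 402, and its log2 fold change of 0.13 had an interval from -0.82 to 1.08 (SE 0.412, adjusted p = 0.970), wide enough to hold a 2-fold rise.

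Mnt (ENSMUSG00000000282, chr11:74830920-74845725, plus strand), the broadly expressed repressor, was at 24.9 and 22.4 TPM in Control and at 24.8 and 27.9 TPM in KO. A log2 fold change of 0.14 was found (SE 0.148, interval -0.20 to 0.48, adjusted p = 0.849), and the Control range held 1 of the KO values.

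Mlx (ENSMUSG00000017801, chr11:101087277-101092207, plus strand), the partner in the glucose-responsive branch, was at 28.2 and 21.1 TPM in Control and at 19.3 and 30.1 TPM in KO. The KO replicates enclosed the Control replicates, and the log2 fold change was 0.07 (SE 0.286, interval -0.59 to 0.73, adjusted p = 0.981). Mxd3 overlaps Prelid1 and Mlx overlaps Psmc3ip, each on the opposite strand. The libraries were directional, but none of the sources used here states whether reads were counted by strand, so those of these neighbours may not be fully told apart.

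Set side by side, the groups did not overlap in CPM for 4 of the 10 genes. Mycl was higher in KO, beside 22.7% of all tested genes, and Myc, Max and Mxi1 were lower, beside 19.3%. In TPM, Mycl was higher (23.1% of all genes) and Max, Mxd1 and Mxi1 were lower (16.8%). Thus Myc held this separation in CPM only, and Mxd1 in TPM only.

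The balance of activators and repressors was described by sums of TPM, with no test. Myc, Mycn and Mycl together came to 321 and 255 TPM in Control and to 262 and 242 TPM in KO. Mxd1, Mxd3, Mxd4, Mxi1 and Mnt together came to 147 and 129.8 TPM in Control and to 126 and 114 TPM in KO. The ratio of the sums was 2.18 and 1.97 in Control (mean 2.07 ± 0.149) and 2.08 and 2.12 in KO (2.10 ± 0.0298), so both KO values lay between the Control values. Leaving Mxd4 out, the ratio was 3.55 and 2.58 in Control and 3.37 and 3.42 in KO, which again lay inside the Control range. No ratio was made in CPM or without Mxd1, so this is shown only for TPM with Mxd1 in the sum. In CPM, Mxd1 overlapped between the groups, while Myc and Mxi1 were lower in both KO libraries. Mnt took a larger share of the repressor sum in KO, 19.6% and 24.5% against 16.9% and 17.2%, and the lower TPM of Mxd1 in KO enters this sum.

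Genes around the network were grouped in lists, and each list is given by its counts and its median log2 fold change, beside a median of 0.01 over all genes tested. In the list of other network genes, 0 of 4 tested passed. Mlxip, which pairs with Mlx, was at 49.8 and 43.0 TPM in Control and at 37.6 and 24.4 TPM in KO. In CPM it went the other way, at 119.7 and 105.5 in Control and at 156 and 124 in KO (edgeR log2 fold change 0.31, SE 0.145, adjusted p = 0.512), so its direction depended on the length scale, as the size of the Mxd1 difference did. Txnip, a glucose-induced target of the Mlx branch that restrains glucose uptake, was at 225 and 291 TPM in Control and at 242 and 200.5 TPM in KO, which overlapped (edgeR log2 fold change -0.32, SE 0.157, adjusted p = 0.537). Mlxipl was listed at 0 in 3 libraries and was not tested.

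Cofactors of Myc gave 0 of 13 called and a median of 0.02. Cdk9, the kinase of transcription elongation, was at a log2 fold change of 0.21 (adjusted p = 0.594). Corepressors of the Mxd and Mnt proteins gave 0 of 15 called and a median of 0.01. Hdac1 was at -0.17 (adjusted p = 0.606) and Hdac2 at 0.21 (adjusted p = 0.623). Among genes for Myc protein turnover, 0 of 13 were called, with a median of 0.09. Skp2, a ubiquitin ligase subunit that acts on Myc and on the cell cycle inhibitor p27, was at 14.1 and 12.4 TPM in Control and at 19.7 and 17.7 TPM in KO, with no overlap (edgeR log2 fold change 0.48, SE 0.199, adjusted p = 0.460).

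The list of genes that act on Myc mRNA or its gene held 2 called genes of 9 tested, both higher in KO, beside the 0.451% of all genes. Igf2bp3, an RNA-binding protein of fetal cells that stabilises mRNAs including that of Myc, was at 0.03 and 0.45 TPM in Control and at 22.3 and 23.3 TPM in KO. Its log2 fold change was 6.46 (SE 0.660, adjusted p = 0.00740). Lin28b encodes an RNA-binding protein that keeps let-7 microRNAs from maturing, and Myc is among the let-7 targets. It was at 0.42 and 0.58 TPM in Control and at 7.64 and 4.50 TPM in KO. For this gene the log2 fold change was 3.38 (SE 0.434, adjusted p = 0.0173). Both genes were known from earlier results of these libraries, so their place in the list is no independent evidence. The call of Igf2bp3 was lost without KO replicate 1 (adjusted p = 0.565), without KO replicate 2 (adjusted p = 0.617) and with no filter on low counts (adjusted p = 0.145), and that of Lin28b without KO replicate 1 (adjusted p = 0.175). Neither passed with limma or with the length offset (adjusted p = 0.129 for Igf2bp3 and 0.144 for Lin28b).

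**Figure D4:**
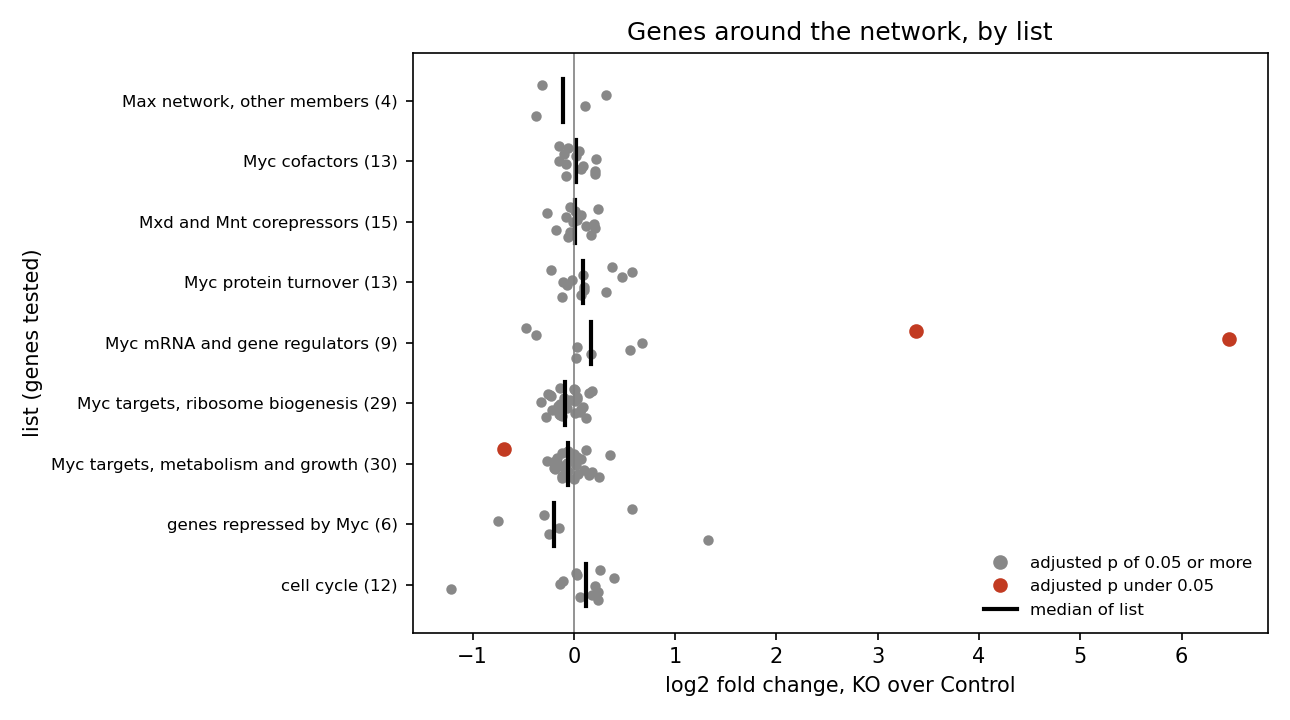
Log2 fold change, KO over Control, of each tested gene in 9 lists around the network, with a black bar at each list's median and red points for an adjusted p under 0.05. The list medians lie between -0.20 and 0.17, and the 3 called genes are Igf2bp3 and Lin28b (6.46 and 3.38) and Tfrc (-0.69).

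Of 29 ribosome biogenesis genes known as Myc targets, all were tested and 0 passed, and the median log2 fold change was -0.09. In 12 of the 29, both KO libraries lay below both Control libraries in CPM (19.3% of all genes did), and in 2 of the 29 both lay above (22.7%). The median stayed between -0.13 and -0.08 in the 12 alternative analyses, so it was small under each of them. Nop2, a nucleolar rRNA methyltransferase, was at 92.6 and 98.7 TPM in Control and at 78.9 and 75.1 TPM in KO (edgeR log2 fold change -0.32, SE 0.117, adjusted p = 0.415). Ppan, which acts in large subunit assembly, was at 156 and 143 TPM in Control and at 132 and 127 TPM in KO (edgeR log2 fold change -0.23, SE 0.114, adjusted p = 0.544).

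Of 30 Myc targets in metabolism and growth, 1 was called, lower in KO (0.212% of all genes were), and the median was -0.06. That gene was Tfrc, the transferrin receptor for iron uptake, at 63.3 and 88.2 TPM in Control and at 53.3 and 48.2 TPM in KO. Its log2 fold change was -0.69 (SE 0.104, adjusted p = 0.0324), and the groups did not overlap. The call ended in each analysis with a single KO library (adjusted p = 0.186 without replicate 1 and 0.187 without replicate 2), and it was lost with the length offset (adjusted p = 0.531) and with limma on log2(TPM + 1) (adjusted p = 0.578). Tfrc is also a gene of erythroid precursors, and the erythroid list was lower in KO as given above. The part of these cells in the Tfrc value was not tested.

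Among genes that Myc is known to repress, 0 of 6 tested passed, with a median of -0.20. Cdkn1a, which encodes the cell cycle inhibitor p21, was at 2.22 and 14.9 TPM in Control and at 24.1 and 19.0 TPM in KO (edgeR log2 fold change 1.32, SE 0.670, adjusted p = 0.546), with the Control replicates far apart. Gadd45a was at 32.2 and 43.8 TPM in Control and at 29.6 and 16.0 TPM in KO (edgeR log2 fold change -0.75, SE 0.332, adjusted p = 0.492). Among cell cycle genes, 0 of 12 passed, with a median of 0.12. Ccne1, the G1/S cyclin, was at 55.3 and 32.4 TPM in Control and at 13.5 and 22.1 TPM in KO (edgeR log2 fold change -1.21, SE 0.242, adjusted p = 0.114), and the proliferation marker Mki67 was at 154 and 126 TPM in Control and at 201 and 177 TPM in KO (edgeR log2 fold change 0.40, SE 0.102, adjusted p = 0.237). Neither of these pairs overlapped between groups.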

How the data were processed

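Per the labels, cells were kept in RNAlater after sorting, RNA was extracted with an RNeasy kit, and polyadenylated RNA was made into directional NEBNext Ultra II libraries. The study's methods give a HiSeq sequencer. STAR, RSEM and the build mm10 (GRCm38) are named in the submitters' processing notes, with neither versions nor annotation in the sources used here. The deposited expected counts, estimated by RSEM per gene and not normalized, were rounded and tested. TPM, as deposited by the authors, gave levels, and the deposited RSEM gene lengths, in bases, were described with no test. RSEM's posterior SD of the count was 0 for all 10 genes. Symbols and positions came from GENCODE M21 (GRCm38).

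The test was edgeR 4.0.16 in R 4.3.3 (quasi-likelihood F test, robust, TMM, filterByExpr with minimum count 10, genotype as only term, two-sided), adjusted over 14635 genes by Benjamini-Hochberg. Genes with an adjusted p under 0.05 were called. SEs are the coefficient over the square root of F. The biological coefficient of variation was 0.471. Counting intervals are exact Poisson at 95%. Replicates differed beyond counting noise (exact binomial test) in 10 of 10 genes in Control and 7 of 10 in KO. By a chi-square approximation, 73.1% and 71.0% of all genes tested for this did. Such a difference cannot tell separate animals from separate libraries of the same RNA. The code was tested on simulated data. Their replicate spread was smaller than here, and their planted changes were larger than those of most network genes. That run does not measure power in these data. Alternatives were DESeq2 1.42.0 (the study's tool), limma 3.58.1 on log2(TPM + 1) or log2(TPM + 0.1), DESeq2 size factors, no filter, effective length offset, posterior mean counts, a replicate block and leaving out each library.

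The members and lists were chosen with earlier results of these data known. Named genes are the 10 members, Cpt1a and, per list, up to 4 called genes or else up to 2 with the smallest p. The marker and dendritic genes beyond this (Kit, Procr, Slamf1, Hoxb5, Mpo, Flt3, Ccr9, Zbtb46, Batf3, Clec9a, Itgax, Siglech, Xcr1, Cd209a), Egr1 and Mlxipl were chosen after their values were seen. The T and NK cell, monocyte and megakaryocyte lists had 1 of 6, 0 of 9 and 0 of 8 tested genes called (1 higher), and the HSC list 0 of 12.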

Additional observations from a re-analysis of the deposited data

How the results depend on the processing

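Over 14635 genes, 97 were called in the main analysis. The count was 1116 with DESeq2 (18374 genes), 196 with no filter on low counts, 4 with the effective length offset, 5 with limma on log2(TPM + 1) and 0 with limma on log2(TPM + 0.1), where 1276 had an unadjusted p under 0.05. It ran from 42 (without KO replicate 1) to 371 (without Control replicate 2) when 1 library was left out; without KO replicate 2 it was 64 and without Control replicate 1 it was 320. Of the 10 network genes, 1 was called with DESeq2 (Mycl) and 0 under every other alternative. Leaving out any 1 library gave 0 as lowest and highest. With the replicate block 98 genes and 0 network genes were called. Replicate differences did not go together between the groups (correlation across genes -0.0175). No label says how replicates of the same number relate between the groups, and this correlation cannot settle it. The fold changes of single genes kept their sign in 110 of 120 comparisons. The sign turned for Mycn without Control replicate 1 (-0.11), Mxd1 without KO replicate 2 (0.12), Mxd3 without Control replicate 2 (-0.15) or KO replicate 1 (-0.054), and Mxd4 without Control replicate 2 (-0.021). For Mlx it turned with the length offset (-0.012), with limma at either pseudocount (-0.018 and -0.020), without Control replicate 2 (-0.049) or KO replicate 2 (-0.31). With 1 library left out, the ranges were -0.11 to 0.21 for Mycn, -0.56 to 0.12 for Mxd1, -0.15 to 0.50 for Mxd3, -0.021 to 0.45 for Mxd4 and -0.31 to 0.37 for Mlx. None of these values passed the test, and the cause was not tested. The difference in the ratio of activators to repressors by TPM, KO minus Control, was 0.0316. It ran from -0.0737 (without Control replicate 2) to 0.137 (without Control replicate 1). Without Mxd4, whose Control replicates lay far apart, it was 0.333. It was not computed in CPM or without Mxd1. Depth limited Mycl most, at 17 and 39 counts in Control.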
